A study of Mus musculus with 4 samples.

Results

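B cell genes were read in RNA from elicited peritoneal macrophages. The set holds 35 listed genes, of which 33 were measured among 22180 genes on the arrays. A gene was measured where a probe set carried its symbol, current or older, and no other gene's, and the probe set with the highest mean over the arrays stood for it. Cd72, an inhibitory co-receptor of B cells, shared its probe set with Tesk1 and was left out of every count, and Cd38 was not analysed here. The gene listed as Faim3 is given under its present symbol Fcmr.

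The cells came from the peritoneal cavity of wild type DBA/2J (DBA) and 129S6/SvEv (129) mice that were 3 months old and fed regular chow. All mice received 1 ml of 4% thioglycollate, an irritant that draws monocytes into the cavity where they become macrophages, and the cavity was washed out 4 days later. The washed-out cells were plated and cultured overnight in DMEM with 10% serum before RNA was extracted, with no sort for macrophages stated. For each strain, equal RNA amounts from 3 female mice made 1 pool and from 3 male mice another, according to the labels, while the methods of the study give another number of mice per pool. The 4 pools, DBA female, DBA male, 129 female and 129 male, were each hybridised to 1 array from 250 ng RNA. The groups compared were therefore 2 DBA pools and 2 129 pools, whose replicates differ in sex.

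B cells make antibody and carry a membrane form of it, the B cell receptor, whose immunoglobulin chains bind antigen while the Cd79a and Cd79b chains signal into the cell. Ebf1 and Pax5 set up and hold the B cell program, and plasma cells, the antibody-secreting end stage, turn it down and raise the secretory factor Xbp1. The peritoneal cavity is known for B-1 cells, a self-renewing kind that makes natural IgM, beside the follicular or B-2 kind that recirculates through spleen and lymph nodes. Macrophages attach to culture plates, and B cells mostly do not.

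Values are on the log2 scale that the authors deposited. They lay between 1.71 and 14.2, and the correlations between arrays, across genes, were 0.970 to 0.987. The arrays give no detection calls, so the 95th percentile of the mean level of 1394 olfactory and vomeronasal receptor genes, 7.17, served as the background reference. The macrophage label was checked on 12 markers, among them Adgre1, which encodes F4/80, at 12.92 to 13.25 in the 4 pools, and Cd68 at 13.41 to 13.55. Of the 12, 1 lay below the background reference in at least 1 pool and 0 in all pools. The female-expressed Xist and 3 Y-linked genes matched the sex of each pool.

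Most B cell genes were higher in the DBA pools than in the 129 pools, and the DBA female pool stood above the rest. Of the 33 genes, 26 had a positive difference of DBA minus 129 and 7 a negative one, although with quantile normalization 3 of the negative ones, Cd5, Zcwpw1 and Bhlha15, were positive. The median log2 difference was 0.54, against 0.0045 over all genes. In 21 genes both DBA pools lay above both 129 pools, which held for 23% of all genes, and in 2 genes, Blnk and Bach2, both DBA pools lay below, which held for 21.4% of all genes. The median log2 level over the 33 genes was 8.73 in the DBA female pool and 7.99 in the DBA male pool, against 7.91 in the 129 female pool and 7.67 in the 129 male pool.

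No single B cell gene passed the test over all genes. In limma, fitted on strain over all genes with Benjamini-Hochberg adjustment, 0 of 33 reached an adjusted p under 0.05 in either direction, where 0.216% of all genes were higher and 0.158% lower in DBA. At an unadjusted p under 0.05, 17 were higher in DBA and 0 were lower, where 6.44% of all genes were higher and 5.08% lower. With 1 pool left out that count was 3 without the 129 male pool, 10 without the 129 female pool, 10 without the DBA female pool, where 2 were lower, and 22 without the DBA male pool. The lowest adjusted p was 0.12, for Cxcr5. Without the DBA male pool 12 of the 33 passed the adjusted threshold, all higher in DBA, where 0.573% of all genes were higher and 0.266% lower in that fit, and the median difference was 0.81, while without the DBA female pool 0 passed and it was 0.24. An exact permutation test over 2 pools against 2 reaches no p below 0.333, the number of arrays limits the precision, and the p-values measure the spread between these pools, sex included. In bulk RNA, fewer cells of a type and less RNA per cell cannot be told apart.

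**Figure D1:**
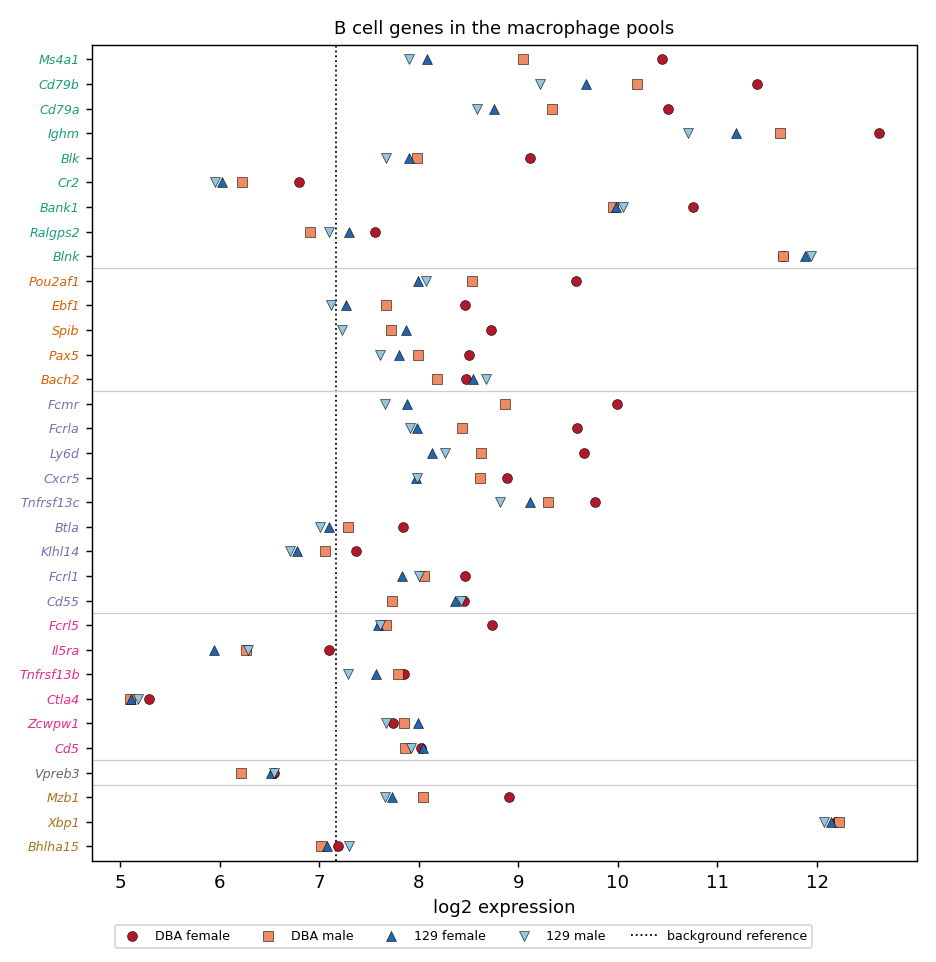
The log2 level (horizontal axis) of each of the 33 measured B cell genes (vertical axis, grouped and coloured by role) in the DBA female, DBA male, 129 female and 129 male pools, 1 marker per pool. The dotted line is the background reference of 7.17, and the DBA female pool is the highest of the 4 in 26 genes.

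The plot of levels by gene sorts the set into its roles, beginning with the antigen receptor. Of 9 measured genes of the receptor complex and signalling, 5 were higher in DBA at an unadjusted p under 0.05 (6.44% of all genes). In 6 both DBA pools lay above both 129 pools (23% of all genes), and the median difference was 0.76. Ms4a1, which encodes the B cell surface protein CD20, had log2 values of 10.44 in the DBA female pool and 9.04 in the DBA male pool, against 8.08 in the 129 female pool and 7.90 in the 129 male pool. The pools did not overlap, and the DBA pools stood 1.40 apart. The log2 difference was 1.75, the largest of the set, with a standard error of 0.43 (limma, adjusted p = 0.25), a DBA to 129 ratio of 3.75 between mean linear levels.

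The signalling chains of the receptor had the same order of pools. Cd79a measured 10.50 and 9.33 in DBA female and DBA male pools, against 8.76 and 8.58 in 129 female and 129 male pools. Cd79b measured 11.40 and 10.19 in DBA female and DBA male pools, against 9.68 and 9.22 in 129 female and 129 male pools. In neither gene did the strains overlap, and in both the DBA male pool lay nearer to the 129 female pool than to the DBA female pool. The log2 differences were 1.25 for Cd79a (standard error 0.36) and 1.35 for Cd79b (standard error 0.39), with an adjusted p of 0.31 for each.

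Ighm, the constant region of the IgM heavy chain and the brightest gene of the set in the DBA female pool, measured 12.62 and 11.63 in DBA female and DBA male pools, against 11.19 and 10.70 in 129 female and 129 male pools. The strains did not overlap, and the log2 difference was 1.18 (standard error 0.34, adjusted p = 0.31). Its symbol stood on 7 probe sets. The DBA female pool was the highest on all 7, both DBA pools lay above both 129 pools on 6, and the differences ran from 0.37 to 2.72. Probe sets over the heavy chain locus can share sequence with one another, so they are not separate evidence.

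Blk, a Src-family kinase of B cells, measured 9.11 and 7.98 in DBA female and DBA male pools, against 7.91 and 7.67 in 129 female and 129 male pools. The strains did not overlap, but the DBA male pool lay close to the 129 female pool, and the log2 difference was 0.76 (standard error 0.36, adjusted p = 0.48). Cr2, the complement receptor CD21 of follicular and marginal zone B cells, measured 6.79 and 6.23 in DBA female and DBA male pools, against 6.03 and 5.95 in 129 female and 129 male pools. All 4 values lay below the background reference, although neither 129 pool reached either DBA pool, and the difference was 0.52 (standard error 0.20, adjusted p = 0.41).

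The adaptors and exchange factor of the group did not separate the strains the same way. Blnk, an adaptor that links the receptor to phospholipase and is also made by macrophages, measured 11.66 in both DBA pools, against 11.88 and 11.93 in 129 female and 129 male pools. The DBA pools were level with each other and below both 129 pools (difference -0.25, standard error 0.11, adjusted p = 0.45). Bank1, a scaffold protein of receptor signalling, was highest in the DBA female pool, at 10.75, while the DBA male pool, at 9.95, was the lowest of the 4, and its difference was 0.33. Ralgps2, which encodes an exchange factor for Ral GTPases, measured 7.56 and 6.91 in DBA female and DBA male pools, against 7.30 and 7.10 in 129 female and 129 male pools, so that the strains overlapped, with a difference of 0.03. Its DBA male and 129 male pools lay below the background reference. The probe set that Cd72 shares with Tesk1 read 10.55 and 9.54 in DBA female and DBA male pools, against 9.68 and 9.28 in 129 female and 129 male pools, and cannot be assigned to either gene.

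**Figure D2:**
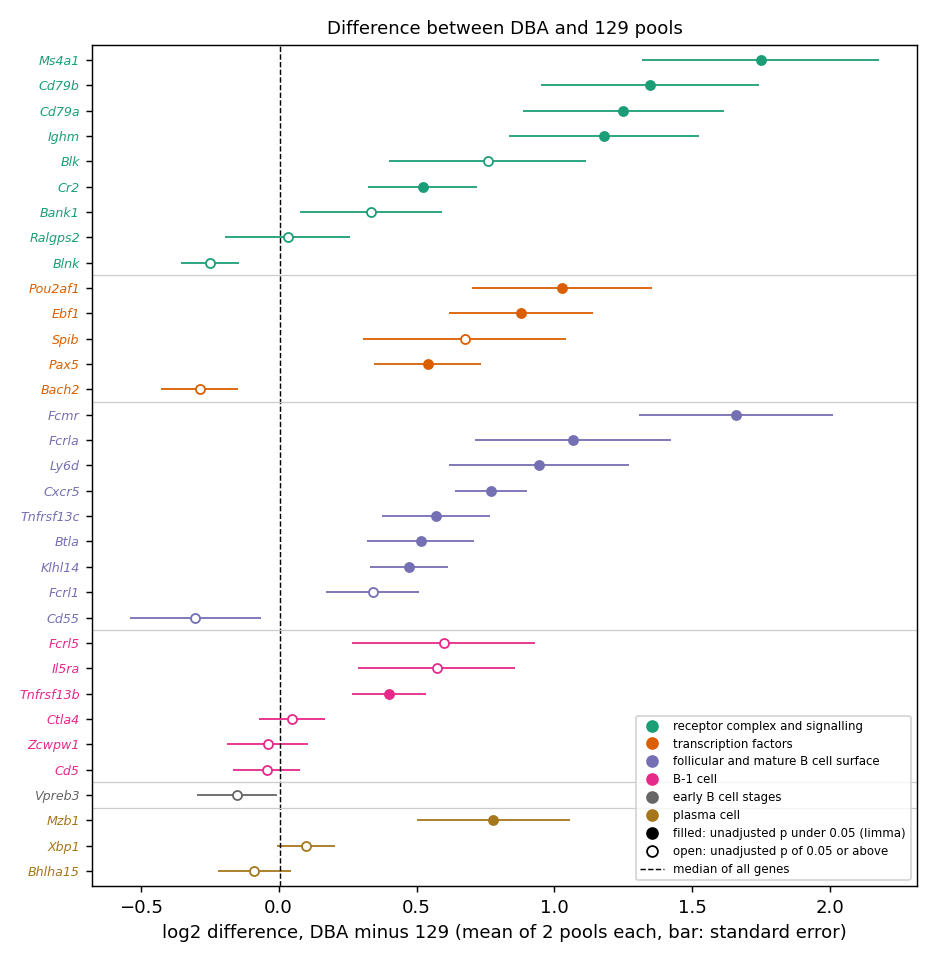
The log2 difference of DBA minus 129 (horizontal axis) for each of the 33 genes (vertical axis), as points coloured by role, filled where the unadjusted p was under 0.05, with the limma standard error as lines, over 2 pools per strain. The dashed line is the median of all genes. Positive values are higher in DBA and negative ones lower, and the 33 genes run from 1.75 for Ms4a1 down to -0.30 for Cd55.

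Among the transcription factors, 3 of 5 were higher in DBA at an unadjusted p under 0.05, where 6.44% of all genes were. The median difference was 0.67. Ebf1, the early B cell factor that opens the B lineage program, measured 8.46 and 7.67 in DBA female and DBA male pools, against 7.26 and 7.11 in 129 female and 129 male pools. Its 129 male pool lay below the background reference and its 129 female pool just above it. Pou2af1, a B cell coactivator of the octamer-binding factors, measured 9.58 and 8.54 in DBA female and DBA male pools, against 7.99 and 8.07 in 129 female and 129 male pools. Pax5, which commits cells to the B lineage, measured 8.51 and 7.99 in DBA female and DBA male pools, against 7.80 and 7.61 in 129 female and 129 male pools. In all of them the strains did not overlap and the DBA female pool was the highest. The log2 differences were 0.88 for Ebf1, 1.03 for Pou2af1 and 0.54 for Pax5, with adjusted p from 0.32 to 0.38.

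The remaining factors overlapped or ran the other way. Spib, an Ets-family factor of B cells and plasmacytoid dendritic cells, measured 8.73 and 7.72 in DBA female and DBA male pools, against 7.87 and 7.23 in 129 female and 129 male pools. The DBA male pool lay below the 129 female pool, and the difference of 0.67 had a standard error of 0.37 (adjusted p = 0.53). Bach2, a repressor that restrains plasma cell formation, measured 8.47 and 8.18 in DBA female and DBA male pools, against 8.54 and 8.68 in 129 female and 129 male pools. Neither DBA pool reached the 129 pools, with a difference of -0.29 (standard error 0.14, adjusted p = 0.50).

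The 250 bases before the transcription start were read from RefSeq on GRCm38.p6 for 25 of the 33 genes. The build is that of C57BL/6J, so neither strain's own sequence is shown. Shown here are 2 of the genes with the lowest p of those in the promoter table, Fcmr (chr1:130865527-130865776, plus strand), the IgM Fc receptor gene, and Cd79a (chr7:24897247-24897496, plus strand). Blnk (chr19:40994222-40994471, minus strand) was added for contrast after its values were seen. Capitals mark the motifs found.
Fcmr: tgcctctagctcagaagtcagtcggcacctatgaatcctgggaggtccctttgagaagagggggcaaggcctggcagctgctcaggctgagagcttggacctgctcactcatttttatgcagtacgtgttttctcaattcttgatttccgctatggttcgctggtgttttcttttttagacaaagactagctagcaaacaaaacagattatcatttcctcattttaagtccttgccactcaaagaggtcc
Cd79a: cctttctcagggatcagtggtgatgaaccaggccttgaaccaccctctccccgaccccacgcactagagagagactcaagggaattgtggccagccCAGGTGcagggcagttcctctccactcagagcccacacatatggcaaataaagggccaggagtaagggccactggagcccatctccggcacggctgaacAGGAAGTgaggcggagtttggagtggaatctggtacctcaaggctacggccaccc
Blnk: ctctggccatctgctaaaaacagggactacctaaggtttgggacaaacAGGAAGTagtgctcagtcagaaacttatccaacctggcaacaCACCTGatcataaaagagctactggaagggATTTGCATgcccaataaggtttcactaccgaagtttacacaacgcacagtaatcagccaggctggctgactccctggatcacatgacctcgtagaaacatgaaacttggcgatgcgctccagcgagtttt
Both strands were searched for CCCNNGGG, a core of the site of EBF factors, for ATGCAAAT, the octamer, for AGGAAGT, a core of Ets and PU.1 sites, and for CAGGTG, an E-box of E proteins. The Fcmr sequence held none of them, and neither did those of Ebf1 and Pou2af1, which are not printed. The Cd79a sequence held CAGGTG from -154 to -149 and AGGAAGT from -55 to -49, counted from the transcription start. The Blnk sequence held the octamer on the other strand, ATTTGCAT, from -130 to -123, the E-box as CACCTG from -160 to -155 and AGGAAGT from -202 to -196. Over the 25 genes, CCCNNGGG was in 3 (11.7% of 27025 promoters of that length), ATGCAAAT in 2, Blnk and Vpreb3 (1.61%), AGGAAGT in 8 (7.8%) and CAGGTG in 11 (17.1%). These matches describe letters in the window and not binding.

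Surface genes of follicular and other mature B cells had 7 of 9 higher in DBA at an unadjusted p under 0.05. Both DBA pools lay above both 129 pools in 8 of them, and the DBA female pool was highest in 9 of 9. Over all genes those shares were 6.44%, 23% and 16.8%. Fcmr measured 9.99 and 8.87 in DBA female and DBA male pools, against 7.88 and 7.66 in 129 female and 129 male pools. Each DBA pool was more than 2-fold above the 129 pool of its sex, and the log2 difference of 1.66 (standard error 0.35, adjusted p = 0.20) was second to that of Ms4a1. Cxcr5, the receptor that draws B cells to follicles, measured 8.88 and 8.61 in DBA female and DBA male pools, against 7.97 and 7.98 in 129 female and 129 male pools. Here the pools of a strain lay close together and the strains far apart, which gave a smaller difference of 0.77 a smaller standard error of 0.13.

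The receptors that keep mature B cells alive or in check had smaller differences. Tnfrsf13c, the BAFF receptor that carries the survival signal, measured 9.77 and 9.30 in DBA female and DBA male pools, against 9.12 and 8.81 in 129 female and 129 male pools. Btla, an inhibitory receptor of lymphocytes, measured 7.84 and 7.29 in DBA female and DBA male pools, against 7.10 and 7.00 in 129 female and 129 male pools. Both 129 pools of Btla lay below the background reference, and in neither gene did the strains overlap. The log2 differences were 0.57 for Tnfrsf13c and 0.51 for Btla, with standard errors of 0.20 and 0.19.

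Fcrla, an Fc receptor-like protein kept inside B cells, measured 9.59 and 8.44 in DBA female and DBA male pools, against 7.98 and 7.91 in 129 female and 129 male pools. Ly6d, a surface protein that marks B lineage progenitors and stays on B cells, measured 9.66 and 8.62 in DBA female and DBA male pools, against 8.13 and 8.27 in 129 female and 129 male pools. In both genes the DBA female pool stood more than 2-fold above the DBA male pool, which was itself above both 129 pools. The log2 differences were 1.07 for Fcrla (standard error 0.36, adjusted p = 0.35) and 0.94 for Ly6d (standard error 0.33, adjusted p = 0.37).

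Klhl14, a kelch-family gene of B cells, was nearer to background, at 7.37 and 7.05 in DBA female and DBA male pools, against 6.77 and 6.70 in 129 female and 129 male pools. Only its DBA female pool was above the background reference, and its difference was 0.47 (standard error 0.14, adjusted p = 0.32). Fcrl1, an Fc receptor-like coreceptor, had both DBA pools above both 129 pools with a difference of 0.34 (adjusted p = 0.50). Cd55, which shields cells from complement and is made by many cell types, measured 8.45 and 7.73 in DBA female and DBA male pools, against 8.36 and 8.43 in 129 female and 129 male pools. The strains overlapped there, since the DBA male pool was the lowest and the DBA female pool the highest, and the difference was -0.30 (standard error 0.24, adjusted p = 0.65).

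Of 6 measured genes used for B-1 cells, 1 was higher in DBA at an unadjusted p under 0.05, where 6.44% of all genes were. In 2 both DBA pools lay above both 129 pools, which held for 23% of all genes, and the median difference was 0.22. Tnfrsf13b, which encodes TACI, a receptor for BAFF and APRIL, measured 7.85 and 7.80 in DBA female and DBA male pools, against 7.57 and 7.29 in 129 female and 129 male pools. The strains did not overlap, the DBA pools differed little, and the log2 difference was 0.40 (standard error 0.13, adjusted p = 0.35). Fcrl5, an Fc receptor-like gene of B-1 and marginal zone B cells, measured 8.73 and 7.67 in DBA female and DBA male pools, against 7.59 and 7.61 in 129 female and 129 male pools. Only its DBA female pool stood apart, and the difference of 0.60 had a standard error of 0.33 (adjusted p = 0.54).

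Cd5, which defines B-1a cells and is also carried by T cells, measured 8.02 and 7.86 in DBA female and DBA male pools, against 8.05 and 7.92 in 129 female and 129 male pools. Zcwpw1, a histone reader known mainly from meiosis, measured 7.74 and 7.85 in DBA female and DBA male pools, against 7.99 and 7.67 in 129 female and 129 male pools. The strains overlapped in both, and the differences were -0.04 for each, with standard errors of 0.12 and 0.15. With quantile normalization they were 0.03 and 0.04. Il5ra, the IL-5 receptor chain of B-1 cells and eosinophils, read 7.10 and 6.27 in DBA female and DBA male pools, against 5.94 and 6.28 in 129 female and 129 male pools, and Ctla4, an inhibitory receptor best known on T cells, read 5.10 to 5.29 in all pools. Both genes lay below the background reference in all 4 pools.

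Of the genes of early and late B cell stages, 1 was higher in DBA at an unadjusted p under 0.05, where 6.44% of all genes were. Mzb1, a chaperone of IgM assembly in B-1, marginal zone and plasma cells, measured 8.91 and 8.04 in DBA female and DBA male pools, against 7.73 and 7.66 in 129 female and 129 male pools. The strains did not overlap, and the difference was 0.78 (standard error 0.28, adjusted p = 0.38). Xbp1, the secretory pathway factor that macrophages also make, was bright and nearly level at 12.07 to 12.22, with a difference of 0.10. Bhlha15, which encodes the secretory cell factor MIST1, had a difference of -0.09, with its DBA male and 129 female pools below the background reference. Vpreb3, related to the surrogate light chain of early B cells, had a difference of -0.15, with all 4 pools below that reference.

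Between the sexes, the DBA pools differed more than the 129 pools. The DBA female pool was the highest of the 4 in 26 of 33 genes, where 16.8% of all genes had it highest. In 20 genes it lay above the DBA male pool and that above both 129 pools, where 8.28% of all genes did. That order also held in 7 of 12 macrophage markers, so it was not particular to B cell genes. Over the 33 genes the median of DBA female minus DBA male was 0.65, and the median of 129 female minus 129 male was 0.07. The female pool was more than 2-fold above the male pool in 10 genes in DBA, where 0.338% of all genes were, and in 0 genes in 129, where 0.176% were. The 10 were Cd79a, Cd79b, Blk, Ms4a1, Spib, Pou2af1, Fcmr, Fcrla, Ly6d and Fcrl5. With 1 pool of each kind there was no spread left to test whether the strain difference itself depended on sex.

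**Figure D3:**
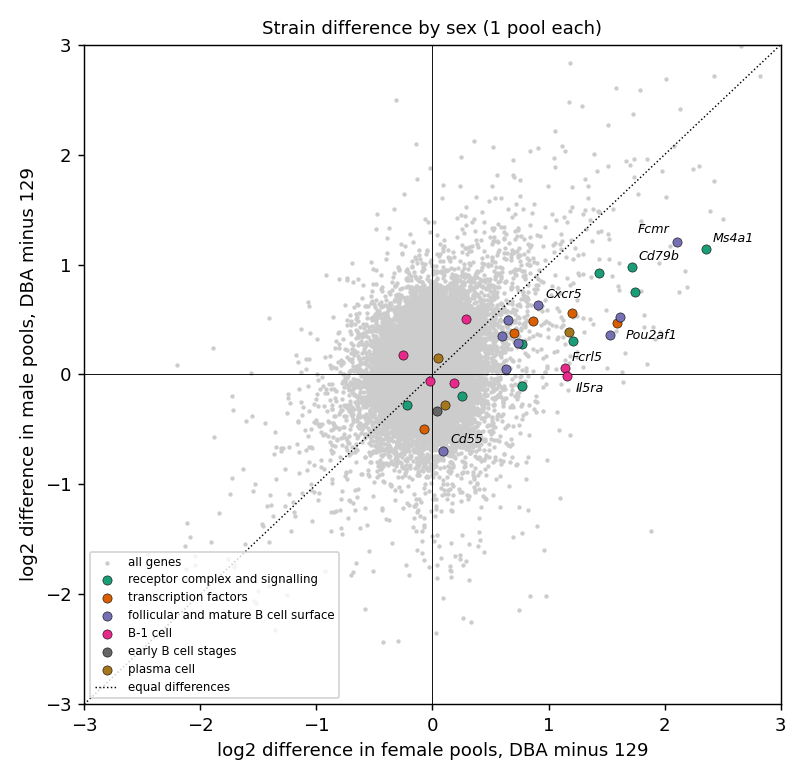
The log2 difference of DBA minus 129 in the female pools (horizontal axis) and in the male pools (vertical axis), 1 pool of each kind, for all genes (grey) and the B cell genes (coloured by role). The dotted line marks equal differences, 16 genes lie outside the axes, and most B cell genes lie below the line, with a median of 0.77 in female pools and 0.31 in male pools.

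By sex, the plot of strain differences in female and male pools shows 29 of the 33 genes positive in the female pools, where 44.1% of all genes were, and 23 in the male pools, where 56.2% were. Of the 33, 13 were more than 2-fold higher in DBA in the female pools, where 0.784% of all genes were, and 2, Ms4a1 and Fcmr, in the male pools, where 1.26% were. In the male pools Ms4a1 was 2.20 and Fcmr 2.31 times as high in DBA as in 129. Across strains, with strain in the model, 0 of 33 genes differed between female and male pools in limma, where 0.018% of all genes did, and the lowest adjusted p was 1. At an unadjusted p under 0.05, 8 were higher in female pools, where 1.2% of all genes were, namely Cd79a, Cd79b, Ighm, Blk, Ms4a1, Spib, Tnfrsf13c and Fcmr.

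The B cell genes made up 10 of the 75 genes that were more than 2-fold higher in the DBA female than in the DBA male pool, which is 13.3% of those genes and 30.3% of the measured B cell genes. Another 7 of the 75 carried immunoglobulin symbols, and 58 were neither. The 58 included Cd22, Xist and the B cell attracting chemokine gene Cxcl13, which were singled out after their values were seen. Cxcl13, the ligand of Cxcr5, measured 13.61 and 12.28 in DBA female and DBA male pools, against 13.09 and 13.08 in 129 female and 129 male pools. Its DBA pools lay on either side of both 129 pools, and its strain difference was -0.14 (standard error 0.41, adjusted p = 0.92).

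Immunoglobulin genes other than Ighm ran the same way as the receptor. Of 12 listed, 2 were measured, and both were higher in DBA at an unadjusted p under 0.05, where 6.44% of all genes were. Neither passed the adjusted threshold (limma, adjusted p = 0.21 for Iglv1 and 0.29 for Ighg3). Iglv1, a light chain variable segment, measured 11.22 and 9.47 in DBA female and DBA male pools, against 8.11 and 7.01 in 129 female and 129 male pools. Its 129 male pool lay below the background reference. Ighg3, the IgG3 constant region, measured 9.98 and 8.69 in DBA female and DBA male pools, against 7.85 and 7.94 in 129 female and 129 male pools. The strains overlapped in neither, and the log2 differences were 2.79 and 1.44. Over 20 immunoglobulin symbols other than Ighm, a list drawn up after the values were seen, 19 were positive and the median difference was 0.99. In 15 both DBA pools lay above both 129 pools, where 23% of all genes did. Of the 20, 8 lay below the background reference in all 4 pools.

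Downstream genes of the B cell receptor pathway, which macrophages share in large part, were nearly level. Of 27 measured from 30 listed, 0 passed the adjusted threshold (limma), and the median difference was 0.08. When p was left unadjusted (under 0.05), 5 were higher and 2 lower in DBA, where 6.44% and 5.08% of all genes were. The kinase gene Syk differed by 0.03 and Btk by 0.07. Cd22, an inhibitory sialic acid receptor of B cells, ran against the set, at 9.68 and 8.55 in DBA female and DBA male pools, against 11.03 and 10.88 in 129 female and 129 male pools. Neither DBA pool reached the 129 pools, with a difference of -1.84, yet within DBA the female pool was again more than 2-fold above the male pool. Rasgrp3, a Ras exchange factor, was the other one lower, with a difference of -0.73, and Cd40, the receptor of T cell help, was higher by 0.46.

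Lists for other stages of the lineage did not have a positive median of the size seen in the set, and the lists were not tested against each other. At an unadjusted p under 0.05, 6.44% of all genes were higher and 5.08% lower in DBA. Both DBA pools lay below both 129 pools in 21.4% of all genes. Of 9 early B cell genes, 0 were higher in DBA and 2, Il7r and Erg, were lower at an unadjusted p below 0.05, 9 had negative differences, 6 had both DBA pools below both 129 pools, and the median was -0.18, while 5 lay below the background reference in all 4 pools. Of 8 germinal centre genes 1, the death receptor gene Fas, was higher at an unadjusted p under 0.05, with a median difference of 0.10 over the list. Of 12 plasma cell genes, an unadjusted p under 0.05 was reached by 2 in the higher direction and by 1 in the lower, and the median was 0.11. The higher ones were Irf4, a factor of plasma cells and of alternatively activated macrophages, with a difference of 1.12 (adjusted p = 0.054), and Prdm1, with 0.45, and the lower one was Slamf7, with -0.55. Jchain, which joins IgM pentamers, and Tnfrsf17, the plasma cell receptor BCMA, lay below the background reference in all 4 pools. Of 10 ligands and partners of the receptors, 5 were higher in DBA before adjustment and 0 lower, among them Tnfrsf14, the partner of Btla, by 0.78. Of 22 measured from 24 further genes of mature B cells, a list that holds Cd22, 6 were higher and 3 lower in DBA before adjustment, with a median difference of 0.16.

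Marker lists of the cell types that a peritoneal wash can hold were summed on the linear scale, as 2 to the power of the log2 value. For 6 measured of 8 B cell markers the sums were 12758 and 6012 in DBA female and DBA male pools, against 4323 and 3281 in 129 female and 129 male pools. For 6 B-1 markers they were 1027 and 925 in DBA female and DBA male pools, against 940 and 873 in 129 female and 129 male pools. This list holds Bhlha15 in place of Fcrl5. The 6 B-1 genes given earlier, which hold Fcrl5, summed to 1307 and 999 in DBA female and DBA male pools, against 997 and 911 in 129 female and 129 male pools. The B cell sum was thus highest in the DBA female pool. Its 6 genes, Cd79a, Cd79b, Ms4a1, Pax5, Ighm and Blk, all belong to the set given above. The sum therefore repeats their values, with Ighm the brightest, and is not separate evidence. The B-1 marker sums lay closer together, while with Fcrl5 the DBA female pool stood above the rest. Of the B-1 markers 2 were below the background reference in all pools and another 1 in some, and the median level was 7.29 to 7.46, so their sum could hardly show a difference.

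Markers of 12 macrophage genes summed to 80454 and 76785 in DBA female and DBA male pools, against 72804 and 71857 in 129 female and 129 male pools. In limma 5 of the 12 were higher and 1 was lower in DBA before adjustment (p under 0.05) and 0 after it. Over all genes 6.44% were higher and 5.08% lower before adjustment. In 8 of the 12 both DBA pools lay above both 129 pools, where 23% of all genes did. In 7 the DBA female pool lay above the DBA male pool and that above both 129 pools, where 8.28% of all genes did. The median difference of the 12 was 0.17, against 0.54 in the B cell genes. For 14 measured of 16 T and NK cell markers, the sums were 2245 and 1890 in DBA female and DBA male pools, against 2372 and 2303 in 129 female and 129 male pools, with 2 genes higher in DBA and 3 lower before adjustment. The difference was negative in 12 of the 14, and Cd3e, a defining T cell gene, differed by -0.22. Of the 14, 5 lay below the background reference in all pools and 7 in at least 1. Their median level was 7.08 to 7.29, which limits what their sum can show. Plasmacytoid dendritic cell markers, 5 of 6 measured, summed to 6018 and 5642 in DBA female and DBA male pools, against 5731 and 5255 in 129 female and 129 male pools. Their part in the B cell genes was not tested.

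**Figure D4:**
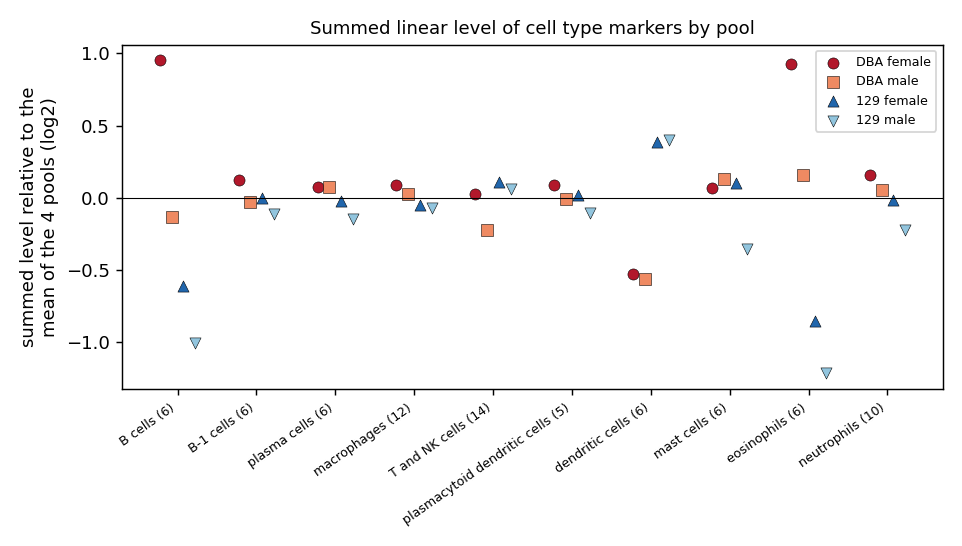
Log2 of the summed linear level of the markers of each cell type (horizontal axis, with the number of genes measured) in each pool, relative to the mean of the 4 pools (vertical axis), 1 marker per pool for DBA female, DBA male, 129 female and 129 male. The B cell sum, made only of genes of the set, is highest in the DBA female pool, and the eosinophil sum follows Alox15. The B-1 and the T and NK cell (both near background), plasma cell (mostly Xbp1) and macrophage sums lie close together.

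Of the other lists in the plot of marker sums, plasma cell markers summed to 6628 and 6646 in DBA female and DBA male pools, against 6209 and 5692 in 129 female and 129 male pools. Most of that sum was Xbp1, which macrophages also make, so it says little of the other markers. The difference was positive in 5 of the 6 and negative in 1, from 0.78 in Mzb1 to -0.12, and 2 lay below the background reference in all pools. Neutrophil markers summed to 1692 and 1580 in DBA female and DBA male pools, against 1502 and 1304 in 129 female and 129 male pools, and 7 of 10 were below the background reference in all pools. The eosinophil list stood out, at 9702 and 5708 in DBA female and DBA male pools, against 2833 and 2204 in 129 female and 129 male pools. Most of it was Alox15, a lipoxygenase gene that macrophages also make, at 13.18 and 12.36 in DBA female and DBA male pools, against 11.17 and 10.75 in 129 female and 129 male pools, and 4 of the 6, among them the granule genes Epx and Prg2, were below the background reference in all pools. Dendritic cell markers summed to 4879 and 4767 in DBA female and DBA male pools, against 9180 and 9268 in 129 female and 129 male pools, with Itgax the 1 gene past the adjusted threshold, lower in DBA. Mast cell markers summed to 2258 and 2352 in DBA female and DBA male pools, against 2306 and 1683 in 129 female and 129 male pools, with Mcpt4 past the adjusted threshold, higher in DBA.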

How the data were processed

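Expression was measured in 4 pools of peritoneal macrophages, 1 array each. The deposited values are log2 expression of 41345 probe sets that the authors made with Affymetrix Expression Console, named in the submitters' processing notes. How the probes were summarised and normalised, and the program version, are not given in sources used here, and an error of scale common to an array would move all its genes together. Probe sets were named by the platform annotation (23521 with 1 gene symbol, 1820 with several and 16004 unnamed), and 23328 symbols were updated by gene ID. Where a gene had several probe sets (1082 genes), the one with the highest mean was used, and no filter on low values was applied.
Linear models were fitted with limma 3.58.1 in R 4.3.3 (lmFit, then eBayes with its default prior, which brought 3.73 degrees of freedom to the 2 of the pools). Strains were compared with no other term, and sexes with strain in the model. Benjamini-Hochberg adjustment ran over all 22180 genes. The code was checked on simulated data. Alternatives were a block for sex, a robust prior with a trend, quantile scaling, equal medians, dim genes removed, averaged probe sets, every probe set tested, no strain term for sex, and leaving out each pool in turn. Each measured member is named, with all pool values for those at an unadjusted p under 0.05 and for the largest and smallest differences of the others, and genes of the other lists are named only at an unadjusted p under 0.05, except where marked as chosen later or given as markers or level genes (Syk, Btk, Jchain, Tnfrsf17). The members and lists were chosen with earlier results of these data known. Promoter sequence is from RefSeq, GRCm38.p6.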

Additional observations from a re-analysis of the deposited data

Results flagged for a closer look

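In 8 of the 33 genes the strain difference had one sign in the female pools and the other in the male pools, as in 46.1% of all genes. Each value is DBA minus 129 on the log2 scale from 1 pool of each kind, and the difference between the sexes was not tested. Bank1 differed by 0.77 in female and -0.10 in male pools, Ralgps2 by 0.26 in female and -0.19 in male pools, and Il5ra by 1.16 in female and -0.014 in male pools. Cd55 differed by 0.090 in female and -0.69 in male pools, and Vpreb3 by 0.036 in female and -0.34 in male pools. Ctla4 differed by 0.18 in female and -0.082 in male pools, and Bhlha15 by 0.10 in female and -0.28 in male pools. Zcwpw1 ran the other way, by -0.26 in female and 0.18 in male pools.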

How the results depend on the processing

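The DBA male pool decided whether B cell genes passed the adjusted threshold. Without it 12 passed in limma (Cd79a, Cd79b, Ighm, Blk, Ms4a1, Ebf1, Pou2af1, Fcmr, Fcrla, Ly6d, Fcrl5 and Mzb1), a fit that takes the spread of the lone DBA pool from the 129 pools, and 0 passed without any other pool, so the count ran from 0 to 12. Under every other alternative 0 passed. At an unadjusted p under 0.05, 15 to 20 were higher in DBA under the alternatives that kept all pools, with up to 1 lower. Over all genes 1735 to 2783 reached that p under them, in either direction. These were of 22180 genes, but of 13378 with dim genes removed and of 23521 probe sets with every probe set tested. The median difference stayed positive, from 0.24 without the DBA female pool to 0.80 without the DBA male pool. Over all genes 83 passed, 129 with a trended and robust prior and from 6 to 186 with 1 pool left out (186 when the DBA male pool was dropped, 135 for the DBA female, 16 for the 129 female and 6 for the 129 male pool). With a replicate block for sex, which pairs pools only by sex, 47 genes passed and no B cell gene changed its call. Between the sexes 4 genes passed, 13 with quantile normalization, and 0 B cell genes in either. Of 357 gene-level alternatives, 14 changed sign, in 8 genes. With quantile normalization Cd5 was 0.029, Zcwpw1 0.037 and Bhlha15 0.0021. With 1 pool left out, the difference ran from -0.064 to 0.73 in Bank1, from -0.29 to 0.36 in Ralgps2, from -0.66 to 0.058 in Cd55, from -0.13 to 0.040 in Cd5, from -0.20 to 0.12 in Zcwpw1, from -0.046 to 0.14 in Ctla4, from -0.32 to 0.017 in Vpreb3 and from -0.20 to 0.020 in Bhlha15. The cause of these changes was not tested. Signal near background limits Cr2, Il5ra, Ctla4 and Vpreb3 in all pools.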
